A study of Drosophila melanogaster with 3 samples.

Results

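Tetraspanin genes were examined for summits of CG10543-eGFP in Drosophila melanogaster embryos. The members were the protein-coding genes whose symbol begins with Tsp, digits and a cytological letter, with lbm added, and the rule found 35 of the 13945 protein-coding genes annotated on the 6 chromosome arms. Of these, 18 form the tandem Tsp42E cluster on arm 2R (dm6, 6992676 to 7066113) and 17 are dispersed over 2L, 2R, 3L, 3R and X. All samples were of 1 group. They were whole embryos of pooled sex, 0 to 24 h old, from a transgenic line in which GFP is fused to the C-terminus of CG10543, and chromatin of 200 to 800 bp was precipitated with an antibody against GFP in 3 biological replicates. Untagged embryos were not analysed here, so enrichment due to the antibody or the chromatin alone and binding of CG10543 cannot be told apart. Each sample mixes all tissues and all of these ages.

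Tetraspanins are small membrane proteins that cross the membrane repeatedly and gather other receptors, proteases and adhesion molecules into membrane microdomains. In the fly, lbm (late bloomer) acts at motor nerve endings while synapses form on muscle, and Tsp2A builds the smooth septate junctions of the midgut together with Ssk, mesh and hoka. Tsp3A, Tsp26A and Tsp86D belong to the group that helps the metalloprotease kuz reach the cell surface, where it cleaves the receptor Notch, and Tsp42Ej (sunglasses) takes part in the degradation of rhodopsin in photoreceptors. The ChIP-seq lists give the positions of regions ranked by signal, and the pooled list is labelled as holding background as well as peaks. The IDR set (from the irreproducible discovery rate, which retains peaks ranked alike by different replicates) held 7545 summits, and each replicate list held 30000 regions. Bound genes are those with at least 1 IDR summit no more than 500 bp from a transcription start site (TSS) of the gene.

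Sequence around summits is shown for some dispersed genes, because these windows differ in base composition and in the motifs they hold. Tsp26A is unbound, and its summit lies 688 bp upstream of it and 39 bp from the TSS of Kdm5. Windows of the bound genes Tsp3A, Tsp86D and Tsp66E are not shown. Each line gives up to 50 bases on either side of the IDR summit, 5′ to 3′ on the strand of the gene, with annotated exon bases of any gene left out, and capitals mark GATAA (or TTATC) and GAGAG (or CTCTC). The sequences come from the RefSeq copy of Release 6, in dm6 coordinates. The Tsp29Fb window (chr2L:8937150-8937250, plus strand) and the Tsp26A window (chr2L:5999502-5999590, plus strand) were followed by those of Tsp5D (chrX:6075058-6075158, minus strand) and Tsp2A (chrX:1346431-1346531, plus strand).
Tsp29Fb: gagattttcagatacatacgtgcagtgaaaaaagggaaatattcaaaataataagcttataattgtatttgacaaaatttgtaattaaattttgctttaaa
Tsp26A: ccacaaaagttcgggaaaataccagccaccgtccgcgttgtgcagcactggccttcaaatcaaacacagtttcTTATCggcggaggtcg
Tsp5D: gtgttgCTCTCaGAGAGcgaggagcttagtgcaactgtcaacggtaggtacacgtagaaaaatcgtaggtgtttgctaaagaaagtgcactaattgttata
Tsp2A: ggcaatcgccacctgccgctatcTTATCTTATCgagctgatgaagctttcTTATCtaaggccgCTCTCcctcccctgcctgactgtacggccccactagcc
The Tsp29Fb stretch was rich in A and T, with a GC content of 22.8%, while that of Tsp2A had 56.4% and that of Tsp5D 42.6%. Tsp2A held 3 GATAA matches and 1 GAGAG match in its window, Tsp5D held 2 GAGAG matches, and the Tsp29Fb window held none of the 8 motifs searched.

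An IDR summit lay at a TSS of 17 of the 35 tetraspanin genes (48.6%, exact Clopper-Pearson 95% interval 31.4 to 66.0%), against 27.9% of all protein-coding genes. The cluster held 11 bound genes of 18 (61.1%, 35.7 to 82.7%) and the dispersed genes 6 of 17 (35.3%, 14.2 to 61.7%), and the interval of the dispersed genes takes in the share of all genes. The intervals of the cluster and the dispersed genes overlap, and the difference between them was not tested. These intervals cover the counting of genes only, and neighbouring members share summits, so the genes are not independent. With a summit in the gene body, over 500 bp from every TSS of the gene, also counted, 13 cluster genes and 8 dispersed genes, 21 of 35 in all (60%), had a summit, against 31.6% of all genes.

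**Figure D1:**
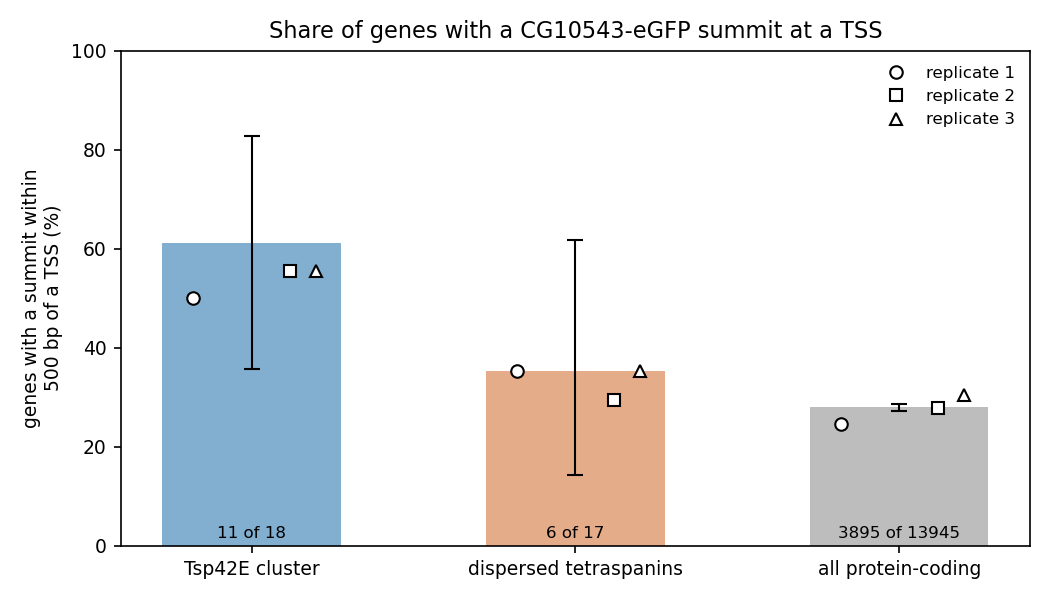
Share of genes (%) with a summit within 500 bp of a TSS in the Tsp42E cluster, the dispersed tetraspanins and all protein-coding genes. Bars are the IDR set with exact 95% intervals, and symbols are the 7545 strongest regions of replicates 1, 2 and 3. The cluster bar stands at 61.1%, the dispersed bar at 35.3% and that of all genes at 27.9%, with each replicate of the cluster at 50% or above.

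The order of the groups was the same in each replicate. Among the 7545 regions of highest signal in a replicate, as many as there are IDR peaks, summits lay at TSSs of 9, 10 and 10 cluster genes in replicates 1, 2 and 3 (53.7% ± 3.21, SD, n = 3). They lay at TSSs of 6, 5 and 6 dispersed genes (33.3% ± 3.40, SD, n = 3), and at 24.6%, 27.8% and 30.4% of all protein-coding genes. Cluster genes had the highest share in each replicate, at 50%, 55.6% and 55.6%. The dispersed genes, at 35.3%, 29.4% and 35.3%, lay closer to all genes. All 3 replicates called 7 cluster genes and 4 dispersed genes, against 2528 of 13945 protein-coding genes. The cluster count was lowest without replicate 2. With only those IDR summits kept that have a match among the strongest regions of replicates 1 and 3, 7 cluster genes remained, Tsp42Ef, Tsp42Ei, Tsp42En and Tsp42Er being lost, against 19.3% of all genes.

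The cluster holds 18 genes in 73438 bp, 15 of them on the plus strand. With genes taken in order of their lowest coordinates, a median of 3901 bp separated the most 5′ start sites. Tsp42Ep and Tsp42Eo overlap on opposite strands, so this order is not everywhere that of the start sites. It held 20 IDR summits, of which 14 lay within 500 bp of a tetraspanin TSS. Of the 20, 18 had a match within 200 bp in all 3 replicate lists, which take in weak regions. Only 13 matched the strongest regions of every replicate, as many regions as there are IDR peaks. Some summits matched the same replicate region, and no share of all IDR summits is given for comparison. With 500 bp added on each side, the cluster held 2.69 summits per 10 kb, against 0.623 on arm 2R and 0.564 over the 6 arms. Tetraspanin start sites are also dense here, and how far that sets the density was not tested. The nearest TSS of another protein-coding gene lay a median of 1766.5 bp away for cluster genes, against 1416 bp for all protein-coding genes. The summits were not evenly spread. The longest stretch without one, 16.5 kb, held the start sites of the unbound genes Tsp42Eb and Tsp42Ec. One of 10.4 kb held those of the unbound Tsp42Ej and Tsp42Ek, with bound Tsp42Ei near its edge. Another of 10.4 kb held, of tetraspanin starts, only that of bound Tsp42Ef. A stretch of 7.23 kb held the starts of unbound Tsp42Ep and bound Tsp42Eo, and one of 6.77 kb those of unbound lbm and bound Tsp42El. The bound genes Tsp42Ef, Tsp42Eo and Tsp42El also start near an edge of their stretch, 17, 111 and 61 bp from a summit.

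**Figure D2:**
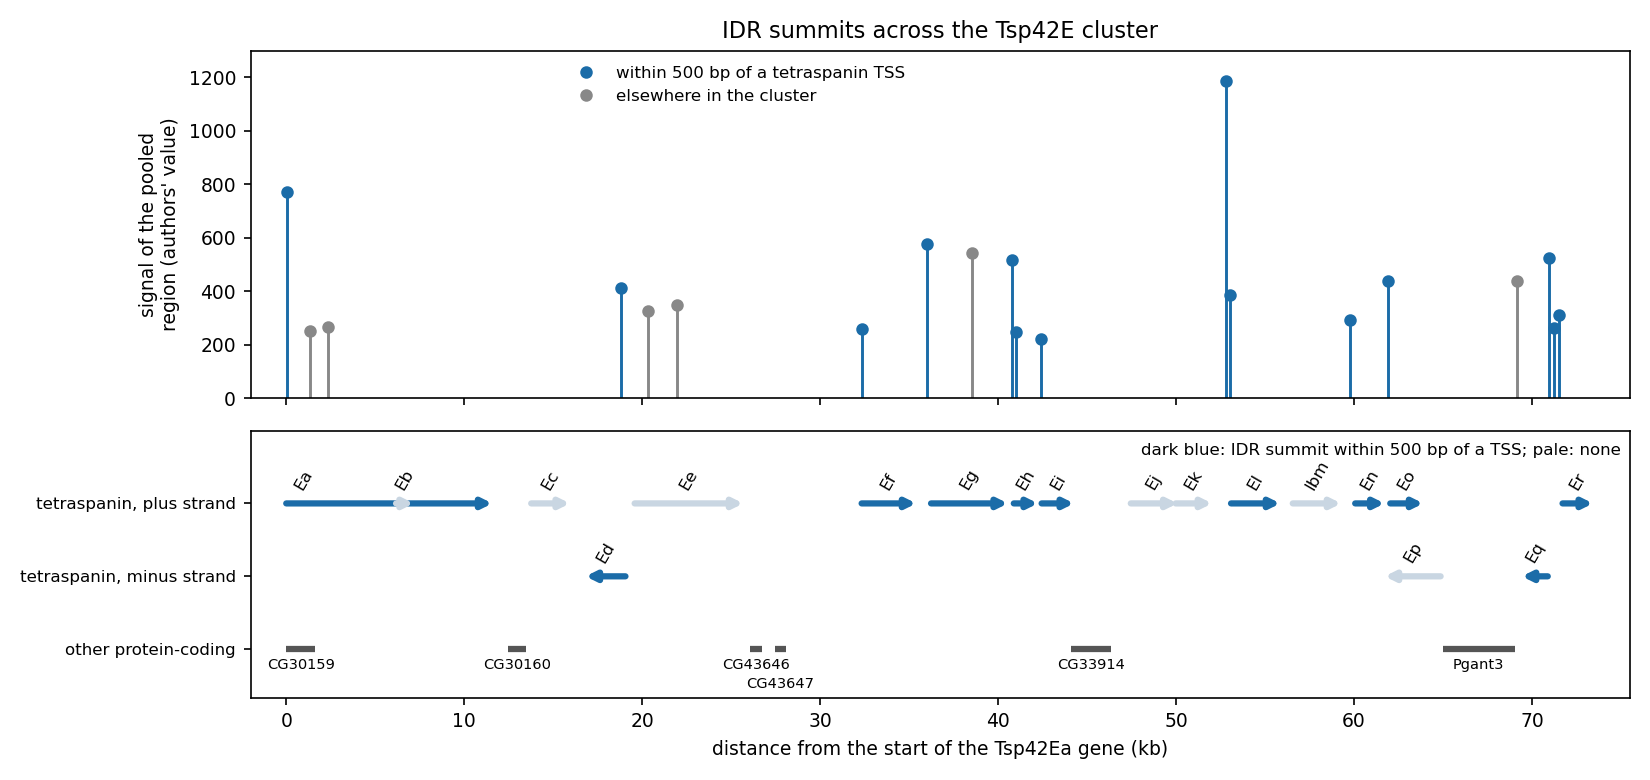
Map of the Tsp42E cluster by distance from the start of Tsp42Ea (kb). The upper panel gives the pooled signal (the authors' value) of each of the 20 IDR summits, and the lower panel the genes by strand, dark blue where a summit lies within 500 bp of a TSS. The tallest summit, 1185, stands at Tsp42El, and the longest stretch without a summit, 16.5 kb, holds the starts of Tsp42Eb and Tsp42Ec.

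The strongest summit of the family lay 278 bp upstream of Tsp42El (FBgn0033134), at 2R 7045491 in the interval 7045258 to 7045893. Its pooled signal was 1185 and its rank 251 of 7545. The matching region ranked 1214 of 30000 in replicate 1, 129 in replicate 2 and 197 in replicate 3 (mean 513 ± 608, SD, n = 3), with signals of 234, 511 and 459. It was thus weaker in replicate 1 than in the other replicates. A second summit in the same interval, 61 bp upstream of the TSS at 7045708, ranked 2776. In replicate 2 both matched 1 region, so they are not separate evidence there.

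Tsp42Ea (FBgn0029508), at the left end of the cluster, had a summit at 6992722 in its 5′ UTR, 41 bp downstream of a TSS. Its signals were 366, 149 and 273 in replicates 1, 2 and 3, with ranks of 412, 1873 and 697 (mean 994 ± 774, SD, n = 3). Here replicate 2 was the weakest. CG30159 starts at the same base on the same strand, so the summit cannot be given to either gene alone.

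Tsp42Eq and Tsp42Er point away from each other with start sites 830 bp apart, and 3 summits lay between them. The one at 7063624, 55 bp upstream of Tsp42Eq, ranked 488, 3173 and 3812 in replicates 1, 2 and 3. The one at 7064226, 173 bp upstream of Tsp42Er, ranked 17596, 1811 and 3291, so replicate 1 put the Tsp42Eq side far ahead, while replicates 2 and 3 put the Tsp42Er side ahead by less. The third, at 7063932, lay within 500 bp of both start sites and had a match in replicates 1 and 2 only. Tsp42Ed and Tsp42Ee are likewise divergent, 515 bp apart. Their summit at 7011512 lay in an intron of Tsp42Ed, 227 bp inside it, and the strongest region within 500 bp of the Tsp42Ed TSS ranked 1103, 5352 and 2917. The region of rank 2917 in replicate 3 also lay within 500 bp of the Tsp42Ee TSS, where replicates 1 and 2 ranked 11145 and 18287, and Tsp42Ee was not called bound.

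Tsp42Eg, Tsp42Eh and Tsp42Eo had summits upstream of their starts. Tsp42Eg had one at 7028710, 201 bp upstream, that ranked 970, 1366 and 1697 in replicates 1, 2 and 3 (1344 ± 364, SD, n = 3), the smallest spread among the cluster genes. Tsp42Eh had one at 7033457, 105 bp upstream, with ranks of 967, 1703 and 2287, and a weaker one at 7033666 in its coding sequence, rank 5809 of the IDR set. The Tsp42Eh summits matched the same region in replicates 1 and 3, so they are not separate evidence there. In replicate 2 the summit at 7033666 ranked 8791. For Tsp42Eo the summit at 7054606, 111 bp upstream, ranked 2906, 1871 and 2090. These genes were within the strongest 7545 regions in every replicate. The Tsp42Eo summit also lies in the 3′ UTR of Tsp42Ep, which runs the other way, 2942 bp from its start.

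The other bound cluster genes were Tsp42En, Tsp42Ei and Tsp42Ef. Tsp42En, with a summit 271 bp upstream at 7052476, ranked 9177, 2902 and 4438 in replicates 1, 2 and 3. Tsp42Ei, with one 22 bp upstream at 7035103, ranked 5343, 6993 and 11458. Tsp42Ef had a summit in its 5′ UTR at 7025027 that ranked 2199 in replicate 1 and 10235 in replicate 3, and had no matching region in replicate 2. Each of these genes thus fell outside the strongest 7545 regions in at least 1 replicate.

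**Figure D3:**
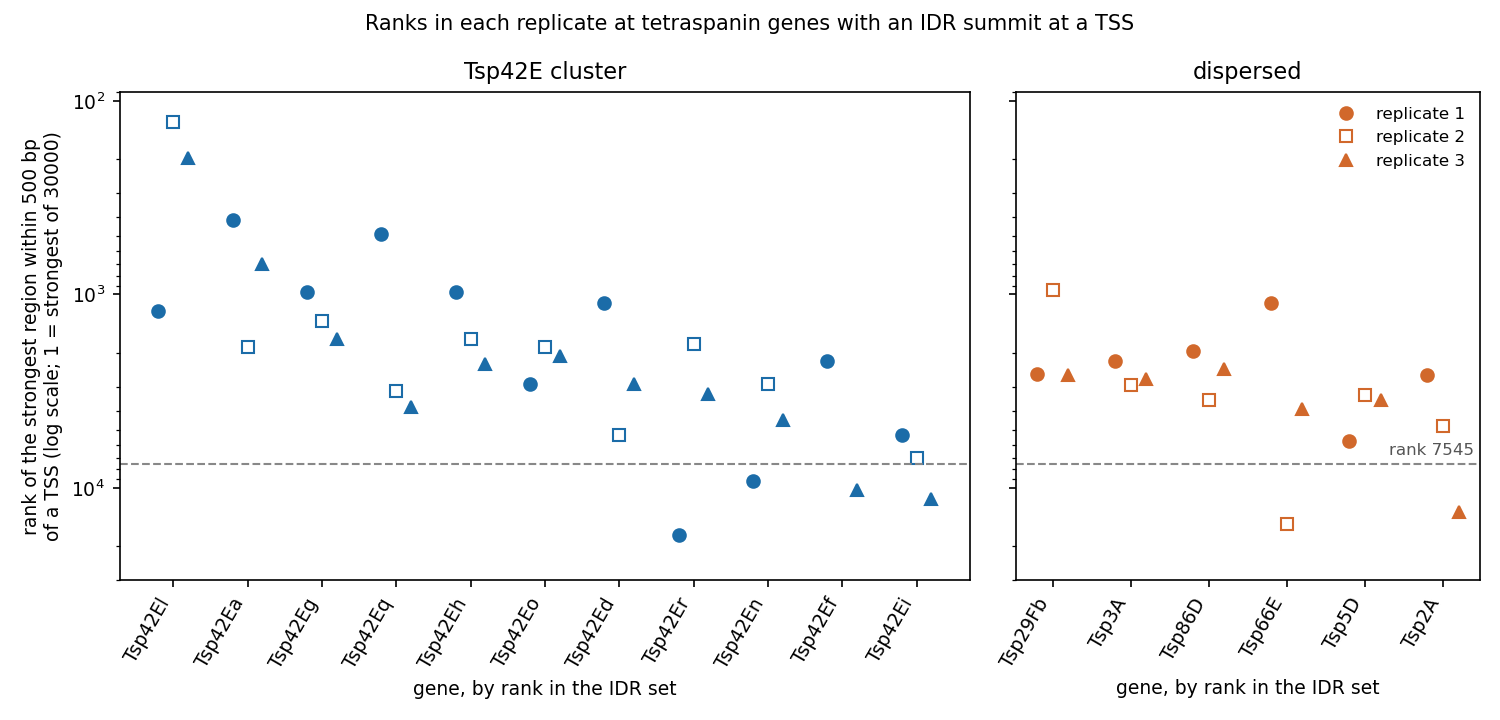
Rank of the strongest region within 500 bp of a TSS (log scale, 1 is the strongest of 30000) in replicates 1, 2 and 3 at the bound tetraspanin genes, cluster genes left and dispersed genes right. The dashed line is rank 7545. Tsp42Ef has no point for replicate 2, and Tsp42Er, Tsp42En, Tsp42Ef, Tsp42Ei, Tsp66E and Tsp2A have a point below the line.

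The unbound cluster genes were Tsp42Eb, Tsp42Ec, Tsp42Ee, Tsp42Ej, Tsp42Ek, Tsp42Ep and lbm. At Tsp42Eb, Tsp42Ec, Tsp42Ek and Tsp42Ep no replicate had a region within 500 bp of a TSS. At lbm the replicates had weak regions, of rank 12172, 26231 and 12380, and at Tsp42Ej they ranked 8627 in replicate 1 and 27237 in replicate 3, with none in replicate 2. A pooled region lay at the TSS of 14 cluster genes of 18 and 10 dispersed genes of 17, together 68.6%, against 49.0% of all protein-coding genes. The pooled list takes in weak regions and background, so a region in it need not be enriched.

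Of 6 protein-coding genes inside the cluster that are no tetraspanins, CG30159 and Pgant3 had an IDR summit at a TSS, while CG30160, CG43646, CG43647 and CG33914 had none. Pgant3 encodes an enzyme that starts O-linked glycosylation. With 6 genes no comparison with the tetraspanins was made.

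The dispersed genes were bound at 6 of 17. Tsp29Fb (2L, summit 8937200, 190 bp upstream) had signals of 162, 210 and 142 and ranks of 2568, 952 and 2626 in replicates 1, 2 and 3 (2049 ± 950, SD, n = 3). Its tandem neighbour Tsp29Fa had no IDR summit, and its replicate regions ranked 26220, 20595 and 20869. The sequence at Tsp29Fb is the A- and T-rich stretch printed above.

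Of the group that works with kuz, Tsp3A and Tsp86D were bound and Tsp26A was not. Tsp3A (X, summit 2619915, 177 bp upstream) ranked 2222, 2954 and 2725 in replicates 1, 2 and 3 (2634 ± 374, SD, n = 3). Tsp86D (3R, summit 10868738, in the 5′ UTR 30 bp from the TSS) ranked 1963, 3511 and 2434 (2636 ± 794, SD, n = 3). Both stood within the strongest 7545 regions in each replicate. Tsp26A had a summit at 2L 5999540, 688 bp upstream, beyond the limit of 500 bp, which ranked 3634, 2639 and 914 and lay 39 bp from the TSS of Kdm5, a histone demethylase gene on the opposite strand.

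Tsp5D (X, summit 6075108, 251 bp upstream) ranked 5711, 3309 and 3508 in replicates 1, 2 and 3. Tsp2A, the septate junction gene (X, summit 1346481, 72 bp upstream), ranked 2605, 4763 and 13374, and Tsp66E (3L, summit 8912592, in the 5′ UTR) ranked 1104, 15318 and 3932. The ranks of these last 2 genes spread widely, with SDs of 5698 and 7524, so that 1 replicate put each of them outside the strongest 7545.

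Most summits of the dispersed genes were shared with a neighbour. Of 6 dispersed TSS summits, 4 (66.7%) also lay within 500 bp of the TSS of a gene that is no tetraspanin. In the cluster this held for 1 of 14. Counting shared tetraspanin starts too, 2 of 14 cluster summits (14.3%) and 4 of 6 dispersed summits lay at TSSs of several genes, against 1281 of the 3890 TSS summits of all protein-coding genes (32.9%). Tsp3A starts 61 bp from Seipin, a lipid droplet gene, Tsp86D 66 bp from SelR, a methionine sulfoxide reductase gene, Tsp66E 112 bp from mfr, and Tsp2A 254 bp from MTPAP, a mitochondrial poly(A) polymerase gene. All 4 neighbours lie on the opposite strand. Such summits cannot be given to 1 gene of the pair, and the difference from the cluster was not tested.

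**Figure D4:**
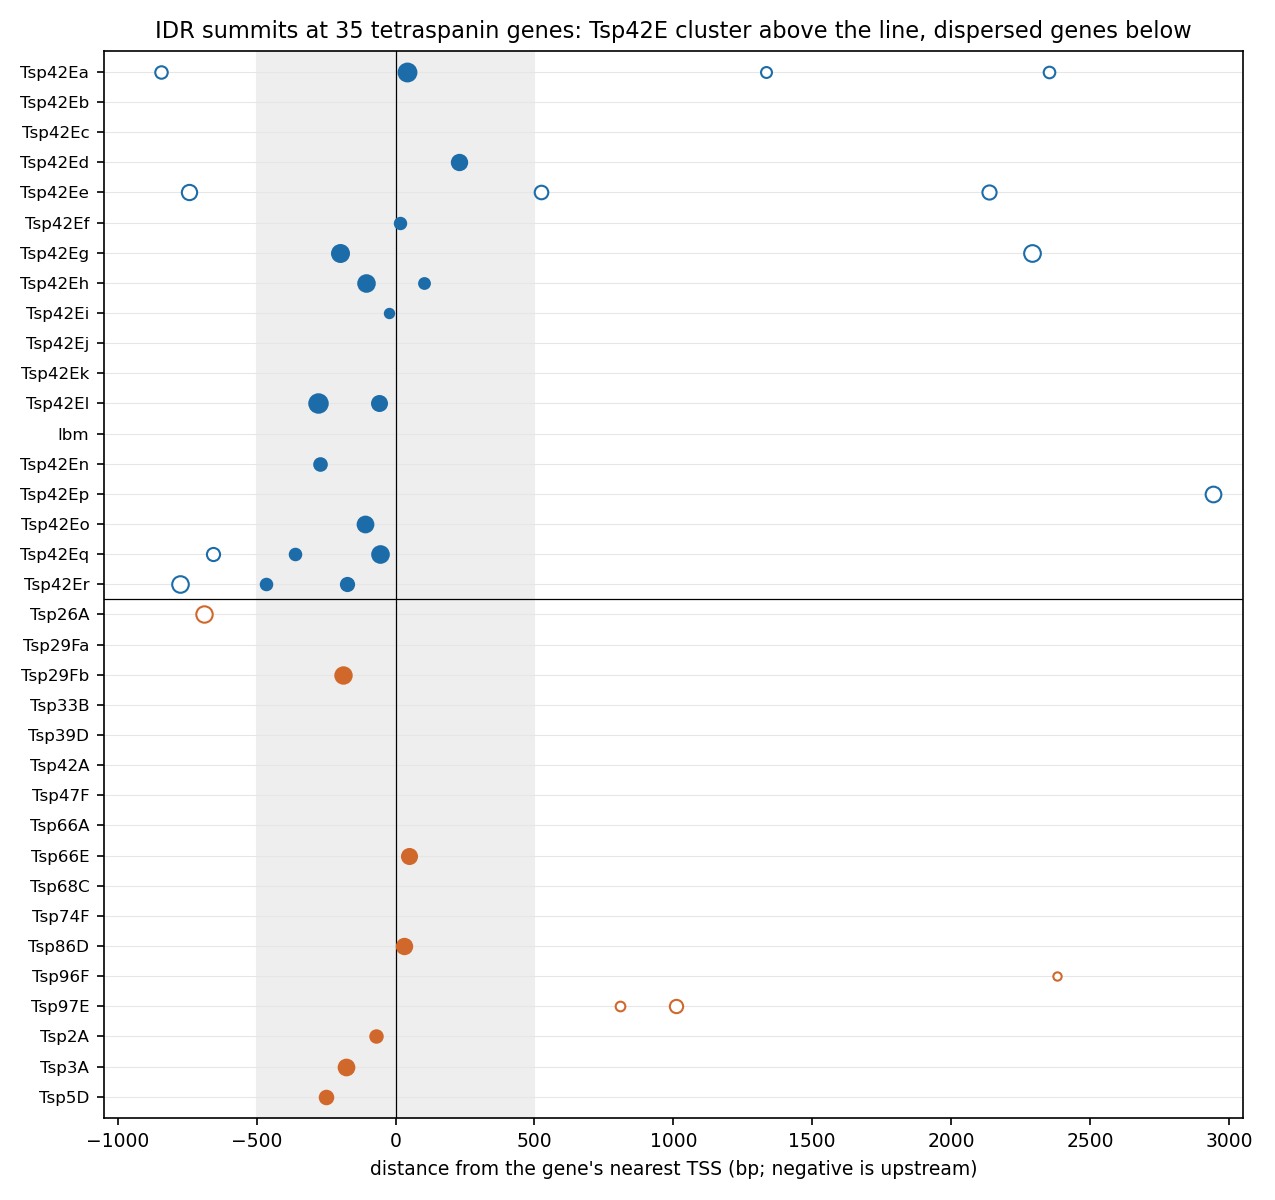
IDR summits by distance (bp, negative is upstream) from the nearest TSS of each of the 35 tetraspanin genes, cluster genes above the line and dispersed genes below. Filled points lie within 500 bp of a TSS (grey band), open points farther away, and larger points have better IDR ranks. Most filled points lie upstream, 15 of 21, and rows without points are genes with no summit.

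Place and rank of the summits at bound members were near those of all bound genes. Of 21 pairs of a member and a summit, 15 lay upstream of the TSS, and the median position was -105 bp, against -100 bp for all bound genes. The median of the best rank per gene was 2514 for bound tetraspanins, against 2793 for all bound genes, and 11 of 17 (64.7%) ranked among the strongest 3772 peaks, against 63.1%.

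In gene bodies, 6 of 35 members (17.1%) had an IDR summit, against 10.5% of all protein-coding genes. Tsp42Ea, Tsp42Ee, Tsp42Eg and Tsp42Ep were those in the cluster, and Tsp96F and Tsp97E those elsewhere. The Tsp42Eg summit at 7031203, in an intron 2292 bp from the TSS, was the strongest of these, with ranks of 2232, 1616 and 1245 in replicates 1, 2 and 3. Tsp42Ee had 2 intronic summits, at 7013009 and 7014623, of IDR rank 3751 and 3327. Tsp42Ea also had 2, at 6994014 and 6995034, of rank 5687 and 5195, and a summit 844 bp upstream of its start, at 6991832, of rank 4556. The summit at 6994014 also lies inside CG30159, and the TSS nearest to each of these intronic summits is one of CG30159. Tsp97E had 2 intronic summits 809 and 1009 bp from its TSS, of rank 6580 and 3954, which matched 1 and the same region in replicates 2 and 3. The Tsp96F summit (3R 25879046, intron) was close to the limit of the set, at rank 7542 of 7545. Per 10 kb of gene there were 1.12 body summits in the cluster genes and 0.383 in the dispersed genes, against 0.337 in all protein-coding genes. The cluster value rests on 6 summits in 4 genes. It counts the Tsp42Ep summit, which is also the TSS summit of Tsp42Eo, and the Tsp42Ee summit at 7013009, only 524 bp from a TSS.

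No IDR summit at a TSS or in the body was found for 14 members. In the cluster these were Tsp42Eb, Tsp42Ec, Tsp42Ej, Tsp42Ek and lbm. The dispersed ones were Tsp26A, Tsp29Fa, Tsp33B, Tsp39D, Tsp42A, Tsp47F, Tsp66A, Tsp68C and Tsp74F. Tsp74F came nearest to the set, with ranks of 8211, 10700 and 7683 in the replicates.

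A list of 14 partner genes was drawn up here, from smooth septate junction, Notch cleavage and integrin genes. It was chosen with earlier results of these data known, and whether each product works with a tetraspanin was not tested. Of these genes, 8 (57.1%, exact interval 28.9 to 82.3%) were bound at a TSS, against 27.9% of all protein-coding genes. The difference was not tested. Among the genes of the smooth septate junction, Ssk and mesh were bound and hoka was not. Ssk had the strongest summit of the list and ranked 230, 1758 and 2491 in replicates 1, 2 and 3, and mesh ranked 841, 4324 and 4999. Of the genes of Notch cleavage, kuz and N were bound, and Tace and Psn (presenilin) were not. The N summit, of IDR rank 7334, ranked 8746, 18366 and 5176. The kuz summit had no match within 200 bp in replicate 1, though a region of rank 5124 lay within 500 bp of the TSS. Both genes were lost when replicate 2 or replicate 3 was left out, and N also when replicate 1 was left out. The integrin alpha chains if, mew, scb and ItgaPS5 were bound, with ranks of 1890, 3401 and 3285 at if and of 3732, 6211 and 1990 at ItgaPS5, whose summit also lies at the TSS of Rrp4. ItgaPS4 and the beta chains mys and Itgbn had no IDR summit at a TSS.

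Promoters, taken as 250 bases before to 50 after the most 5′ TSS, were searched on both strands for short motifs. GAGAG, the letters bound by GAGA factor, was found in 42.9% of the member promoters, against 29.7% of all protein-coding promoters. GGGCGG was found in 6 of 35 (17.1%), against 5.97%, and TATAAA in 9 of 35 (25.7%), against 45.8%. GATAA was near the background, at 51.4% against 55.2%. GAGAG stood in the promoters of 8 of 18 cluster genes and 7 of 17 dispersed genes. The CA repeat CACACA was found in 5.71%, against 19.2%, DRE (TATCGATA) in 8.57%, against 9.36%, Motif 1 (GGTCACACT) in 5.71%, against 6.05%, and the CRE (TGACGTCA) in none, against 0.437%. In windows of 100 bases on each side of the 20 summits at tetraspanin TSSs, GAGAG was found in 35%, against 30.5% of all IDR summits, and GATAA in 35%, against 39.6%. In the same windows GGGCGG was found in 10%, against 8.71%, and TATAAA in 20%, against 25.3%. GATAA stood in 4 of the 6 dispersed windows and in 3 of the 14 cluster windows. A match describes letters and is not a binding site. All 36-base words in the 20 windows occurred once in the 6 arms, so none of this sequence is repeated between cluster genes at that length.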

How the data were processed

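The data were peak lists of 3 ChIP-seq replicates, of their pool and of the IDR set, on dm6. The authors deposited a signal value and a −log10 q-value for each region, in the order of the narrowPeak format, and called the replicates and the pool against 1 control alignment, per the file headers of the deposited notes. Sources used here do not name the aligner, the peak caller or the scaling of the signal. No read counts were given, so depth is unknown. Regions with a q-value under 0.01 numbered 12593, 7016 and 7612 in replicates 1, 2 and 3. Of the 7545 strongest regions, pairs of replicates shared 65.1 to 75.2%.

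Signal ranked regions within a list only. Genes came from Ensembl release 115 (BDGP6), sequence from RefSeq Release 6. Summits within 200 bp were matched. Shares have exact Clopper-Pearson 95% intervals, counting error only, and no test was run, as there was 1 group. Every member with an IDR summit at a TSS or in its body was named. All 14 partner genes were named, with replicate ranks for the 4 of highest pooled signal at a TSS, and ranks at kuz and N added because these calls were weak. Members and lists were chosen with earlier results of these data known. The dm3 lists were not used. Scripts used Python 3.11.15, NumPy 2.4.6, pandas 2.3.3 and SciPy 1.17.1 and were tested on simulated peaks.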

Additional observations from a re-analysis of the deposited data

How the results depend on the processing

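The counts of bound genes were repeated with TSS distances of 200 and 1000 bp, with the most 5′ or the nearest TSS only, and with 1 summit per interval, and moved by less than 1.5 times. Restricting the IDR set to its strongest 3772 peaks left 11 tetraspanins (31.4%) bound, 7 of them in the cluster (38.9%), and 5 partner genes (35.7%), against 17.6% of all protein-coding genes, and 3 tetraspanins (8.57%) with body summits, against 5.89%. With all pooled regions, 10 dispersed genes (58.8%) had a region at a TSS, against 49.0% of all genes, and 14 tetraspanins (40%) one in the body, against 24.2%. When only IDR summits matched in both other replicates were kept, leaving out each replicate in turn gave 12 to 14 tetraspanins, 7 to 9 cluster genes, 4 to 5 dispersed genes and 6 to 7 partner genes at a TSS, against 22.5%, 19.3% and 18.2% of all genes without replicates 1, 2 and 3. Without replicate 1 the dispersed genes, 4 of 17 (23.5%), were close to the 22.5% of all genes. Body summits were left in 5 tetraspanins (14.3%) each time, against 7.49 to 8.13% of all genes. This rule is stricter than the IDR set by construction. With matching at 100 bp, 15 of 16 genes still had a match in all replicates, and all 15 mean ranks moved by less than 1 SD. No paired analysis was possible because there was 1 group. Depth is unknown, and whole embryos mix tissues and ages.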
